A study of Drosophila melanogaster with 3 samples.

Results

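The sensory organ precursor genes described here are 7 Drosophila melanogaster genes, chosen by name, that are known to act in these precursors or to respond to proneural proteins: sens, sca, chn, nvy, insb, siz and neur. They were 7 of 13968 protein-coding genes on the chromosome arms. They were chosen with earlier results of these data known, so the counts given for them are descriptions and not independent support. Their sites were found by position: every deposited summit, the point of highest signal of a region, that lay inside a gene or within 5000 bp of either end was assigned to it. Chromatin immunoprecipitation with sequencing (ChIP-seq) was done on 1 group in 3 biological replicates, with no second condition. The material was whole embryos, male and female pooled, aged 0 to 8 h, from a transgenic line (strain ac-GFP) that stably expressed Achaete (Ac) fused C-terminally to green fluorescent protein, and an antibody to that tag was used. Chromatin was sonicated to 200 to 800 bp, and the control alignment was not analysed here. The labels number the replicates as biological but do not describe how the embryos were collected, and differences between replicates may therefore include technical variation. Whole embryos mix all cell types, so binding in few cells and weak binding in many cannot be told apart, and no measurement here shows which cells were bound.

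Ac and its relative Scute are basic helix-loop-helix activators that pair with Daughterless and bind E-boxes. They give small groups of ectodermal cells the competence to become neural, and Notch signalling between these cells then leaves single cells, the sensory organ precursors, with high proneural activity. The precursor divides asymmetrically to make the cells of a bristle or another sense organ. Among the 7 genes, sens and chn encode zinc finger transcription factors, nvy a nuclear cofactor and insb another nuclear protein. The genes neur and sca act in signalling between cells, and siz encodes an exchange factor for ARF GTPases.

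The E-box searched was GCAGCTG or GCAGGTG, on either strand, with every letter within 100 bp of a summit. The 4 windows of 201 bp printed next are shown because they hold the strongest E-box summit of neur, siz and sens, and the only summit among the 7 genes with an E-box and a binding site of Suppressor of Hairless, Su(H), the DNA-binding effector of Notch. All are the plus strand of dm6, written 5′ to 3′ and taken from the RefSeq release 6 genome, and capitals mark the E-box. A match on the minus strand reads CAGCTGC or CACCTGC here. The first window (chr3R:9024925-9025125, intron of neur) holds 2 E-boxes, and the next is chr3L:21066701-21066901 (intron of siz). The third is chr3L:13394236-13394436 (past the 3′ end of sens), where the E-box is centred on the summit itself. The last is chr3R:9038136-9038336 (intron of neur), where tgtgagaa is the Su(H) match.
neur strongest: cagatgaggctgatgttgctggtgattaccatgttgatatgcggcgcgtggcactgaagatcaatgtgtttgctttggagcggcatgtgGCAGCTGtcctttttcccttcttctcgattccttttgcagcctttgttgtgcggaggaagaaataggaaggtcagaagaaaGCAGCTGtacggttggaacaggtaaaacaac
siz strongest: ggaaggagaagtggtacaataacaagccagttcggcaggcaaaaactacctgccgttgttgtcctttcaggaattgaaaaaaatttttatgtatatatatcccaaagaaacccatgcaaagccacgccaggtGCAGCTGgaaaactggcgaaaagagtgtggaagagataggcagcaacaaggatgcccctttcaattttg
sens strongest: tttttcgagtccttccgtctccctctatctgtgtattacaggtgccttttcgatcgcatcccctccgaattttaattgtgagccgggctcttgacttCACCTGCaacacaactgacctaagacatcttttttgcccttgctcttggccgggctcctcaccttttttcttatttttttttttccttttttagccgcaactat
neur proximal: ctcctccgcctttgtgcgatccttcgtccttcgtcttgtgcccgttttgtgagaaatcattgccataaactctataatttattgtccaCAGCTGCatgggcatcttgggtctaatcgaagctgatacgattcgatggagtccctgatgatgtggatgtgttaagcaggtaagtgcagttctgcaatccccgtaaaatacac

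All 7 genes had a summit in the authors' optimal list, which holds the 2756 strongest regions of the list made from all replicates together (the pooled list). Over all protein-coding genes the share was 28.2%. Since long genes have more room for summits, the share was also taken by length: 46.0% of genes of at least 10 kb and 25.3% of shorter genes had one. Of the members, 5 were in the longer class (chn, nvy, neur, sca and siz) and 2 in the shorter (sens and insb). Each member had at least 2 summits, against 8.15% of all protein-coding genes, 22.6% of those of at least 10 kb and 5.76% of the shorter ones. The counts were 4 at siz and neur, 3 at sens, sca and chn, and 2 at nvy and insb, or 21 in all. Over the 202 kb of the genes with their flanks this came to 1.04 summits per 10 kb, against 0.206 over the chromosome arms without Y.

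**Figure D1:**
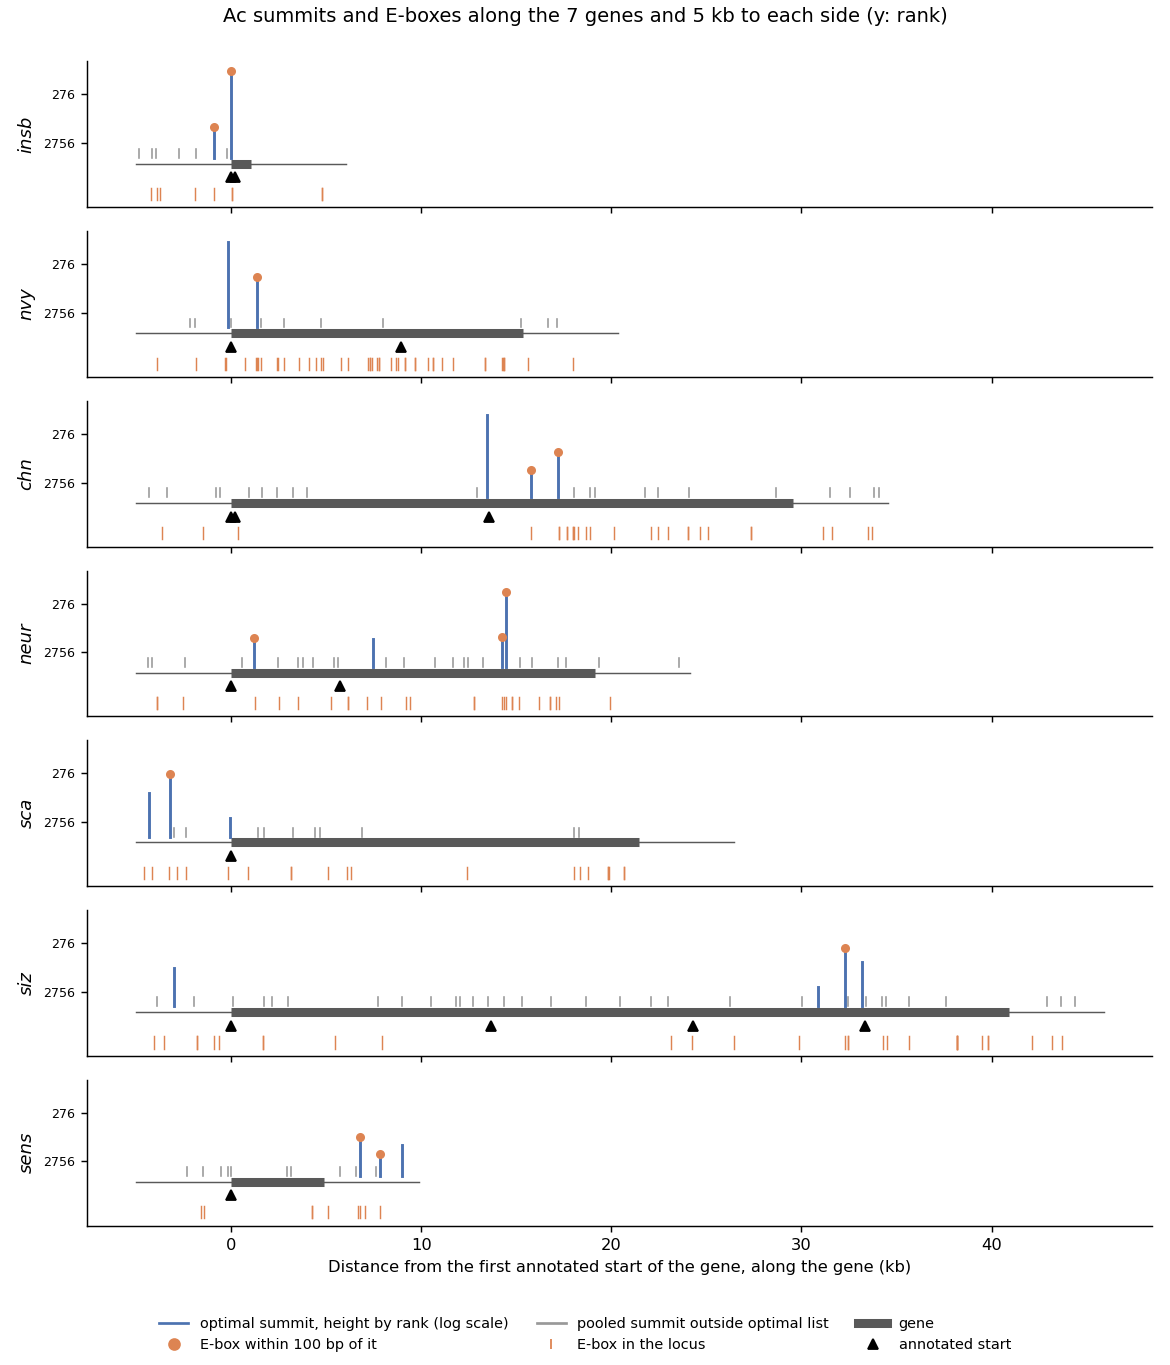
Optimal summits (blue), pooled summits outside the optimal list (grey), E-boxes (orange ticks) and annotated starts (triangles) along each gene and 5 kb to each side, by distance in kb from the gene's first annotated start. The height of a blue line is the rank of the summit on a log scale, where 1 is the strongest of 2756, and an orange dot marks a summit with an E-box within 100 bp. The summits sit near the start at insb, nvy and in part sca, inside the gene at chn and neur, and past the 3′ end at sens. At siz, 3 lie inside the gene before its most downstream start and 1 lies before the gene.

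Among the transcription factor genes, chn (charlatan, FBgn0015371, dm6 2R 15115236 to 15144783, plus strand) had the most even peak. Its summit 1 (15128714) lay inside the gene, 112 bp from an alternative start and 13478 bp past the first start. It ranked 112 of 2756 in the optimal list, and 114, 122 and 106 in replicates 1, 2 and 3, where ranks order the regions of a list by the authors' signal value and 1 is the strongest. This strongest chn peak held no E-box. Both intronic summits that followed did, summit 2 at 15130998 (rank 1498; replicates 1866, 1323 and 2630) and summit 3 at 15132452 (rank 652; replicates 858, 597 and 568). The 2 matches at summit 3 overlap on opposite strands and form a single palindromic site. All 3 chn summits were among the 2756 highest regions (the top regions) of every replicate.

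At sens (senseless, FBgn0002573, dm6 3L 13396228 to 13401125, minus strand, whose product is needed for precursor development and sustains proneural expression) no optimal summit lay inside the gene or within 5000 bp before it. The 3 summits lay past the 3′ end, by 1892, 2924 and 4084 bp, at 3L 13394336, 13393304 and 13392144. The nearest annotated start to each was that of Poc1, at 4330, 3298 and 2138 bp. The closest to sens was the strongest, with rank 859 and ranks of 1238, 499 and 521 in the replicates. The middle one ranked 1946, had no counterpart within 150 bp in the full list of 30000 regions of replicate 1, and ranked 1029 and 3158 in replicates 2 and 3. The farthest ranked 1299 (replicates 2914, 1326 and 943) and held no E-box. At the sens start itself the nearest pooled summit was 28 bp away, with rank 5099 and a q value of 0.0115, outside the optimal list.

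In the optimal list insb and nvy had the highest ranks of the members, while in replicate 1 and by the mean over replicates chn was first. The gene insb (insensible, FBgn0034224) spans only 1059 bp of the minus strand, 2R 17475214 to 17476272, and had a summit 1 bp from a start, at 2R 17476271. It ranked 90 in the optimal list and 409, 52 and 120 in the replicates, and held 2 E-boxes. A summit 890 bp before the gene also held an E-box. It ranked 1293 (797 and 809 in replicates 2 and 3) and had no counterpart in replicate 1. Since qkr54B, veil and CG43110 also lie within 5000 bp of both summits, the assignment to insb is by position only.

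The gene nvy (nervy, FBgn0005636, 2R 24275734 to 24291084, plus strand, the fly member of the ETO family of corepressors) had a summit 173 bp before its first start, at 2R 24275561. It ranked 95 in the optimal list and 615, 51 and 102 in the replicates. No whole E-box lay in its window, but 1 was centred 98 bp from the summit, with its outermost letter just beyond the limit. A summit in its intron, 1372 bp past the start, ranked 511 (replicates 882, 539 and 417) and held 3 E-boxes, the most of any member summit. The locus of nvy was also the richest in E-boxes, with 46 in the gene and its flanks, and these 3 were the ones that lay whole within 100 bp of an optimal summit.

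Of the genes that act between cells, neur (neuralized, FBgn0002932, 3R 9020348 to 9039471, minus strand, a ubiquitin ligase for Notch ligands) had all 4 summits in its introns. The strongest, at 3R 9025025, lay 8706 bp from the nearest neur start. It ranked 159 in the optimal list and 475, 90 and 183 in the replicates, with 2 E-boxes, 1 of them centred 8 bp from the summit. A second summit of the same deposited region, at 9025224, ranked 1356 and held 1 more E-box. In replicate 1 both were matched by the same region of rank 475, and in replicates 2 and 3 the second ranked 1046 and 4282. The most proximal summit, at 9038236, lay 1235 bp inside the gene and 524 bp from the start of the neighbouring gene hyx. It ranked 1382, with 17119, 1564 and 529 in the replicates, and so was outside the top regions of replicate 1 and far apart between the replicates. The remaining summit, at 9032012, had no E-box and ranked 1492 (replicates 2202, 1767 and 1424). The downstream start of neur had a pooled summit 91 bp away at rank 2868 with a q value of 0.000872, just outside the optimal list.

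The gene sca (scabrous, FBgn0003326, 2R 12780541 to 12802010, plus strand) encodes a secreted protein that helps to space precursor cells. All 3 of its summits lay before the gene, at 4324, 3209 and 64 bp from its start. The middle one, at 2R 12777332, was the strongest and the only one with an E-box. It also lay 8 bp from the start of a non-coding RNA gene, lncRNA:CR45266. It ranked 288 in the optimal list and 159 and 91 in replicates 2 and 3, but 4202 in replicate 1, outside that replicate's top regions. The mean replicate rank of 1484 was 125 without replicate 1. The farthest summit ranked 691 (replicates 1521, 536 and 356). The summit at the sca start was the weakest of all 21, with rank 2262, no counterpart in replicate 1, and ranks of 1601 and 1543 in replicates 2 and 3. With genes extended by 2000 bp instead of 5000 bp, this was the only one left.

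The gene siz (schizo, FBgn0026179, 3L 21034535 to 21075444, plus strand) encodes a guanine nucleotide exchange factor known in fly embryos from axon guidance and myoblast fusion, and at 40.9 kb it is the longest member. Its strongest summit, in an intron at 3L 21066801, ranked 352 (replicates 698, 250 and 239) and was the only one of its 4 with an E-box. Next along the gene came a summit 147 bp from the most downstream siz start, with rank 665 (replicates 2868, 368 and 814). A summit 464 bp from the start of CG43072 ranked 2215, had no counterpart in replicate 1, and ranked 1978 and 2496 in replicates 2 and 3. The last, 2969 bp before siz and 206 bp from the start of CG10584, ranked 919 (replicates 606, 1084 and 1012). The last 2 named lay near the start of a neighbour and not of siz, so their assignment to siz is by position only. The strongest summit was also nearer to the start of CG43072 (949 bp) than to a siz start (1087 bp), so the same holds for it.

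Ordered by the rank of the strongest summit, the members ran insb (90), nvy (95), chn (112), neur (159), sca (288), siz (352) and sens (859). The mean rank of these summits over the replicates was 194 ± 190 for insb, 256 ± 312 for nvy, 114 ± 8.00 for chn and 249 ± 201 for neur (SD, n = 3). It was 1484 ± 2354 for sca, 396 ± 262 for siz and 753 ± 420 for sens (SD, n = 3). Without replicate 1 the means of nvy, insb, neur and siz were 76.5, 86.0, 136 and 244, while that of chn was again 114. The ranges of replicate ranks of each gene overlapped those of the next in this order. Since all genes were ranked in the same 3 replicates, they were also compared within each replicate. There siz ranked above sens in all 3, as did insb, nvy, chn and neur, while sca did so in replicates 2 and 3. Every other pair of neighbours changed order between replicates. The ranges of insb (52 to 409), chn (106 to 122) and neur (90 to 475) also lay apart from that of sens (499 to 1238). With 3 replicates of a single group, a two-sided exact permutation test cannot pass the usual threshold, so none was run. The median rank of the 21 summits was 859, against 1378 over the optimal list, and 9 of them were among the 689 strongest.

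**Figure D2:**
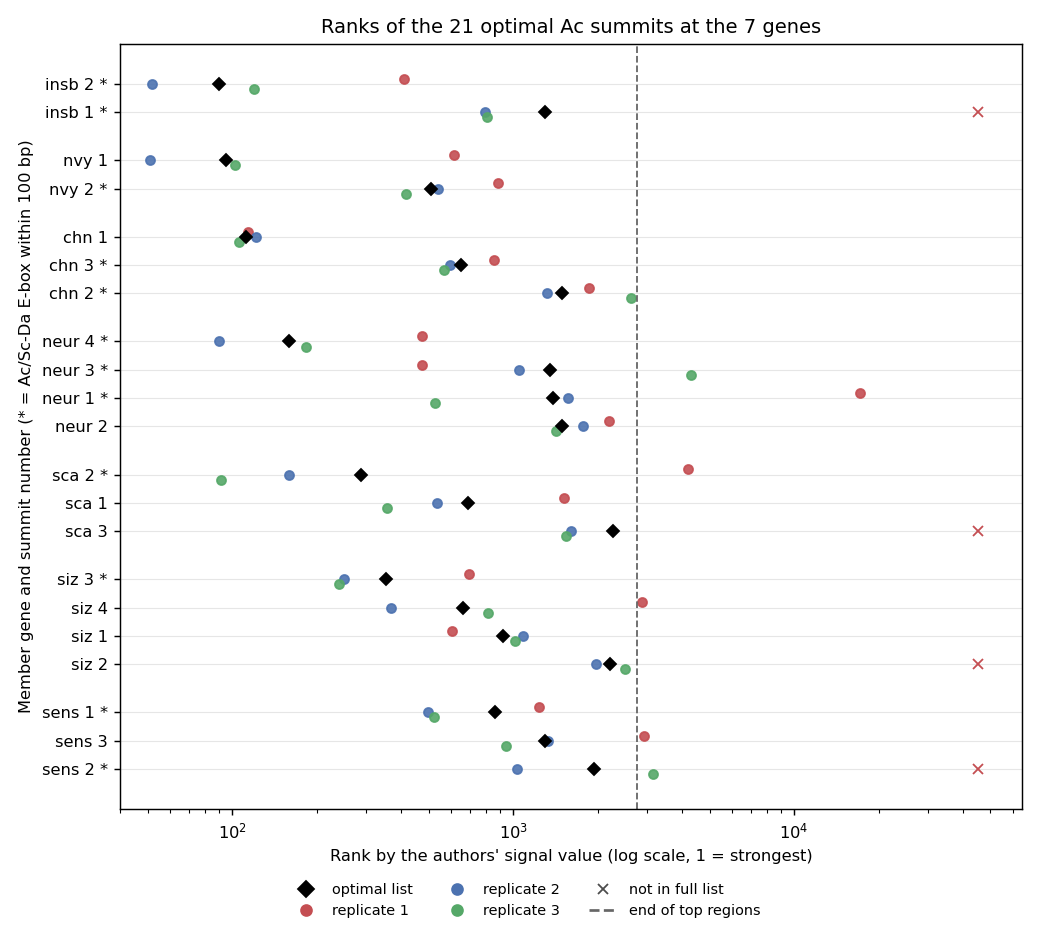
Rank of each of the 21 member summits in the optimal list (black) and in replicates 1, 2 and 3 (coloured), on a log axis where 1 is the strongest. The dashed line marks the end of the top regions at 2756, a cross marks a summit with no counterpart in a full replicate list, and the crosses all belong to replicate 1. Ranks of chn summit 1 lie between 106 and 122, while those of neur summit 1 run between 529 and 17119.

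Most of these sites had a lower place in replicate 1 than in the other replicates. Of the 21 summits, 12 (57.1%) were in the top regions of all 3 replicates, against 47.5% of all optimal peaks, 8 were in those of 2 and 1 in those of a single replicate. Replicate 1 held 13 of the 21 in its top regions, replicate 2 held 21 and replicate 3 held 19. The 4 summits with no counterpart in a full list were all absent from replicate 1, at sens, sca, insb and siz. Where both had a counterpart, 14 of 17 ranked higher in replicate 2 than in replicate 1, against 53.0% of all optimal peaks, and likewise 14 of 17 ranked higher in replicate 3 than in replicate 1, against 47.8%. Replicate 1 also had the fewest regions at a q value of at most 0.05, with 3453, against 9954 in replicate 2 and 7898 in replicate 3. The part of that difference in the lower ranks was not tested. Requiring support from replicates 2 and 3 alone left 19 summits at all 7 genes. Requiring replicates 1 and 3 left 12, and requiring replicates 1 and 2 left 13, again at all 7 genes.

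Taken from each replicate's own top regions, all 7 genes had at least 1 summit in every replicate. The background shares of protein-coding genes were 28.8% in replicate 1, 27.5% in replicate 2 and 27.3% in replicate 3. The number of summits at the members was 19 in replicate 1 and 28 in each of the others. Of these, 7, 6 and 9 had no optimal summit within 150 bp (replicates 1, 2 and 3). The strongest of these ranked 920 in replicate 1, inside chn, 1518 in replicate 2 and 883 in replicate 3. Those of replicates 2 and 3 lay just beyond the matching distance from optimal summits of sens. In replicate 1, the strongest region at sens lay before the gene, at 13403214 with rank 1004, and had no counterpart within 150 bp in the pooled list. A pooled summit beyond that distance, at 13403413, had rank 3278 and a q value of 0.00137, outside the optimal list. At siz, replicates 2 and 3 had 8 and 7 summits, against 3 in replicate 1, while nvy had 2 in each.

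**Figure D3:**
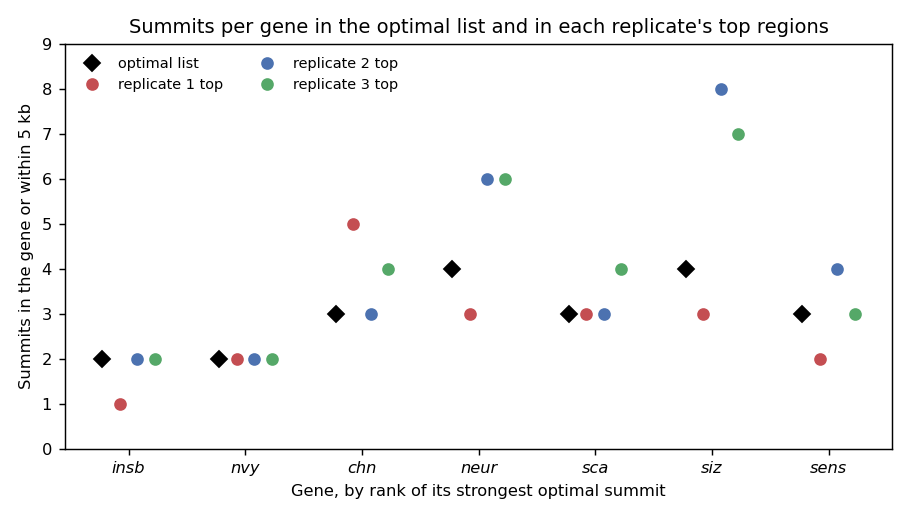
Number of summits in each gene or within 5 kb of it, in the optimal list (black diamonds) and in the top regions of replicates 1, 2 and 3 (coloured circles). Every gene has at least 1 in every replicate, nvy has 2 in each list, and siz has between 3 and 8.

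E-boxes were found at 12 of the 21 summits (57.1%), against 17.9% of all 2756 optimal summits and 6.72% of windows of the same width at 19275 annotated starts of protein-coding genes. All 7 members had such a summit, against 885 (6.34%) of all protein-coding genes, of which 3941 had any optimal summit. This share was not split by gene length. At sca the count rested on a single summit, 3209 bp before the gene and outside the top regions of replicate 1. With genes extended by 2000 bp, or without replicate 2 or replicate 3, sca had no E-box summit. At 5 of the 7, the strongest summit held the E-box, and the exceptions were chn and nvy. Counting words by their centre, a choice made after seeing the data, adds the strongest nvy summit and gives 13 of the 21 (61.9%), against 18.1% of the optimal list. There were 17 matches, at 16 separate sites. Of the matches, 13 read GCAGCTG, 4 read GCAGGTG, and 15 were centred within 50 bp of the summit, with a median distance of 25.0 bp. The GCAGGTG form was the only one at sens, where both E-box summits held it, and at sca, and it occurred besides at nvy. In the replicates' own top regions, E-boxes were at 10 of 19, 15 of 28 and 12 of 28 member summits (52.6%, 53.6% and 42.9%), against 12.4%, 18.9% and 18.5% of all top regions of replicates 1, 2 and 3. These shares are descriptions, since summits of the same gene are not independent.

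Among the members, E-boxes were more frequent at summits away from starts. Of 13 intronic or intergenic summits, 10 held an E-box (76.9%), against 19.3% of such summits in the optimal list. Of 8 summits within 500 bp of an annotated start of any gene, 2 did (25.0%), at insb and sca, against 15.3% of such summits in the optimal list. The nvy start summit, with its word at the edge, is counted here among those without. This division was made after the values had been seen. By place, the 21 summits comprised 8 at starts, 8 in introns and 5 between genes, where 40.7%, 36.8% and 18.6% of the optimal list were found. A summit within 500 bp of the gene's own start was found at 5 members, all but sens and neur, against 9.01% of all protein-coding genes. That share was not split by gene length or by the number of annotated starts, which ran from 1 at sens to 4 at siz.

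Other motifs were searched on both strands in the same windows. A Su(H) site (CGTGGGAA, TGTGGGAA, CGTGAGAA or TGTGAGAA) was found at 1 of the 21 summits (4.76%), the proximal neur summit printed above, against 2.21% of the optimal list and 2.05% of starts. The core bound by Senseless (AAATCA) was at 3 summits (14.3%), in sca, chn and neur, against 22.5% of the optimal list. The N-box CACNAG, known as a site of Enhancer of split repressors, was at 3 (14.3%), against 21.6%. GAGAG was at 6 (28.6%), against 28.9%, and CAGGTAG, the site of the early activator Zelda, at 2 (9.52%), against 2.58%, in sca and siz. The E-box cores CATATG and CACGTG were at none of the 21, against 7.91% and 2.94% of the optimal list. The core CAGCTG, which GCAGCTG contains, was at 12 summits (57.1%), against 19.4%. CAGGTG, which GCAGGTG contains, was at 5 (23.8%), against 12.8%.

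**Figure D4:**
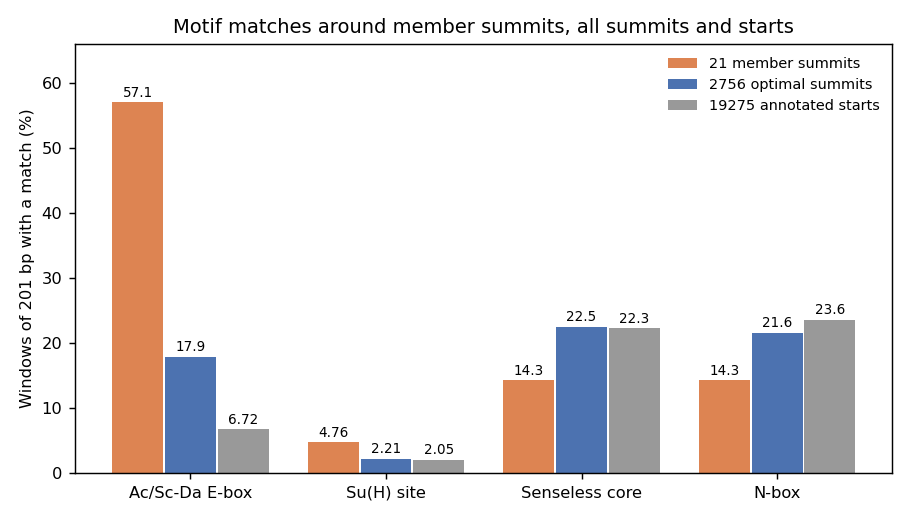
Share in percent of windows of 201 bp that hold a match to each motif, for the 21 member summits (orange), all 2756 optimal summits (blue) and 19275 annotated starts (grey). The E-box is in 57.1% of member windows and 17.9% of optimal windows, while the Senseless core and the N-box are each in 14.3% of member windows, or 3 summits.

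Most E-boxes in these genes had no summit. The 7 genes and their flanks held 170 E-boxes, or 8.40 per 10 kb, against 4.48 per 10 kb over the genome. Of the 170, 17 (10.0%) lay whole within 100 bp of an optimal summit, against 1.14% of the 61610 E-boxes of the genome. In the same windows lay 2.08% of the bases of these loci, against 0.403% of the bases of the genome. With all pooled summits, 51 of the 170 (30.0%) were within 100 bp, against 7.04% over the genome. These loci held 132 of the 30000 pooled summits, and the share of bases near pooled summits was not taken. The number of E-boxes did not order the genes by the strength of their summits, since insb, with rank 90, and sens, with rank 859, had 9 each.

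Below the optimal list, the pooled list held 111 further summits at the 7 genes, 26 of them with a q value of at most 0.05. Of these 26, 8 (30.8%) held an E-box, against 13.6% of the 4755 pooled summits with such q values outside the optimal list. Of the other 85, 20 (23.5%) did, against 9.73% of all pooled summits with q values above 0.05. The numbers at a q value of at most 0.05 were 7 at neur, 5 at chn, 4 at sens, nvy and siz, 2 at insb and 0 at sca. The 3 strongest were those at siz (ranks 2767 and 2823, both intronic) and the neur start summit described above. An intronic summit of nvy at rank 2974, 1574 bp past the start, held an E-box and had a q value of 0.000841. At sca the strongest ranked 7637, with a q value of 0.0539. On the distance limit, the summits farthest inside it were those 4324 bp from sca and 4084 bp from sens, and the nearest outside was 8544 bp from sens (rank 2180, with an E-box).

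Of 18 other genes known from sensory organ precursors or their daughter cells, 15 had an optimal summit and 7 had at least 2, read against the same 28.2% and 8.15% of all genes. The list was chosen with earlier results of these data known, so its counts are descriptions and not independent support. The list held 8 genes of at least 10 kb, of which 6 had a summit, read against 46.0% of all such genes, and 10 shorter ones, of which 9 had, read against 25.3%. The strongest summits were at cpo (couch potato, an RNA-binding protein; rank 13; replicates 50, 7 and 8), edl (a regulator of ETS factors; rank 110; replicates 570, 77 and 60), pros (prospero, a homeodomain protein; rank 190; replicates 65, 301 and 361) and phyl (phyllopod, an adaptor for protein degradation; rank 223; replicates 352, 291 and 101). No summit was found at ct, CadN or Rsph3. Of the 44 distinct summits of this list, 17 held an E-box (38.6%), against 17.9% of the optimal list. They lay at 9 of the 18 genes, where 6.34% of all protein-coding genes had such a summit. Many of the 44 came from few genes. There were 9 summits at pros, 8 at Traf4, 7 at edl and 6 at phyl, with an E-box at 4, 3, 3 and 2 of them.

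For each member, the gene whose strongest regions ranked most like its own was sought over the 3 replicates, as the distance between the log10 ranks. Genes that share a summit with the member were left out. Among the rest, the nearest to insb was nvy itself, at 0.191. The nearest to nvy was CG43110, at the same 0.191. CG43110 shares the insb summit and has the same replicate ranks as insb (409, 52 and 120), so both values compare nvy with that summit. The others were Ten-m for sens (0.0579), sktl for siz (0.0701), cv-2 for chn (0.107), msi for neur (0.179) and Wdr62 for sca (0.221). With 3 values per gene such likeness is a description only.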

How the data were processed

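Peak lists of ChIP-seq with a tag antibody were used, on dm6. Per the notes deposited with the files, the authors made each replicate list, without a reproducibility cut-off, from the alignments of that replicate and of a control, the pooled list from all alignments together, and the optimal list from these through the irreproducible discovery rate. Which peak caller and threshold were used is not given in the sources used here. Each region carries the authors' signal value, on an unstated scale, which served only to rank regions within a list. The deposited −log10 q value was used with a limit on q of 0.05. The lists hold no read counts, so depth is unknown. Lists on dm3 were not used here.

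The ends of all regions were checked against chromosome lengths in the release 6 assembly. Genes and starts came from the Ensembl annotation (BDGP 6.54, release 115), and coordinates count from 1. Summits within 150 bp were counted as the same, and each replicate was represented by its 2756 highest regions unless the full list is named. The optimal list without a replicate holds the peaks found in the top regions of both others. A gene symbol that was not current was matched through RefSeq synonyms, which was needed for 2 of the 18 further genes. Python 3.11.15 with pandas 2.3.3 was used, and the assignment and motif searches were tested on simulated data. No test between groups was run, because there is 1 group.

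The members, lists, motifs and alternatives were chosen with earlier results of these data known. Named besides the members were genes with a start within 500 bp of a member summit, and the 4 further genes with the strongest summits and those with none. Also named was the gene most like each member among those that share no summit with it. Poc1, hyx and the neighbours of insb were named after their values were seen. Alternatives changed the distance to the gene, the number of peaks, the matching distance, the motif and its window, the ranking value and the replicates.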

Additional observations from a re-analysis of the deposited data

How the results depend on the processing

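All 7 genes kept at least 1 summit under every alternative that was run, except that 5 had a summit inside the gene itself (sens and sca had none there). The same did not hold for E-box summits, since sca had none with genes extended by 2000 bp or without replicate 2 or replicate 3. The 94 alternative values could not change direction, since all are counts or ranks, so the lack of a reversal says nothing of their steadiness. Of them, 74 were classed as the same as the main value and 20 as moved. The first class took in large shifts, so its size is no measure of steadiness. The strongest sca rank, 288, was 2262 with genes extended by 2000 bp. Its mean replicate rank, 1484, was 125 without replicate 1, and both were classed as the same. With summits inside the gene only, the members had 12 summits, 4 of them within 500 bp of a start. Counted as genes, 5 of the 7 members and 8 of the 18 further genes then had a summit, against 1102 (7.89%) of all protein-coding genes. With the 1000 strongest peaks, the members had 12 summits, 7 with an E-box, 8 of the further genes had a summit, and 1794 of all genes did. Leaving out a replicate gave 12 to 19 summits, 7 to 10 of them with an E-box and 4 to 8 within 500 bp of a start, with 10 to 12 of the further genes and 2471 to 2763 of all genes. The share with an E-box lay between 52.6% and 61.5% in these versions, against 15.8% to 20.4% of all peaks kept. The count in the top regions of all replicates, 12, was 7 in the 1000 highest regions, 8 with summits matched within 75 bp and 17 in the full lists. Ordering by the q value placed the strongest summits of all members at a tied 1134, because 2266 of the 2756 peaks share the lowest q value. No paired analysis was possible because there is 1 group and no second one to pair it with, though genes and summits were compared within replicates. Depth is unknown, so an absent counterpart means only that none was listed among 30000 regions.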
